A study of Homo sapiens with 6 samples.

Results

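Homologous recombination, Fanconi anemia and excision repair genes were followed in ONS-76, an established human medulloblastoma cell line, after knockdown of KDM1A, a histone demethylase also known as LSD1. The 39 members were chosen by symbol from textbook pathways, with earlier results of these data known. They were sorted into homologous recombination, break sensing and end resection, the Fanconi anemia pathway, the damage checkpoint, and excision and mismatch repair. Of these, 36 had at least 1 probe set that names them alone, out of 19775 genes with such a probe set, whereas BRCA2, FANCA and FANCD2 were not analysed here. Affymetrix U133 Plus 2.0 arrays measured RNA of 6 cultures, of which 3 had received a single siRNA against KDM1A (siKDM1A) and 3 the transfection reagent with no siRNA (control). The paper describes independent transfections, and the sample labels place the harvest 48 h after transfection, earlier than the paper's text does. The labels name the siRNA target KDM5A and set LSD1 beside it. Since control cells received no siRNA, the loss of KDM1A and the delivery of an siRNA cannot be told apart, and 1 siRNA in 1 cell line was used. All values are RMA log2 values, on which a difference of 1 is a doubling, and fewer expressing cells and less RNA per cell cannot be told apart in such bulk samples.

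Homologous recombination repairs a DNA double-strand break from the intact sister chromatid, which restricts it to the S and G2 phases of the cell cycle. Its broken ends are first sensed and resected, then prepared for pairing with the sister under the control of BRCA1, BARD1, PALB2 and BRCA2. The Fanconi anemia pathway removes crosslinks between the DNA strands and feeds the resulting breaks into recombination. Nucleotide excision repair cuts out bulky lesions such as those made by ultraviolet light, mismatch repair corrects replication errors, and the kinases ATM, ATR, CHEK1 and CHEK2 pass the damage signal to the cell cycle. Medulloblastoma is treated with radiation and DNA crosslinking drugs, whose lesions these pathways process.

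The knockdown was seen in the target itself. KDM1A stood at 9.50, 9.57 and 9.49 on the control arrays and at 6.25, 6.34 and 6.31 on the siKDM1A arrays, which is 9.33-fold lower (limma adjusted p = 7.1e-07). None of 5 KDM5A probe sets was called, and the brightest differed by -0.27 (limma adjusted p = 0.14). The next brightest differed by -0.39 (limma adjusted p = 0.056), and on both of them the siKDM1A arrays lay below the control arrays. Of 7 measured markers of granule neuron precursors and medulloblastoma, OTX2, PAX6 and GLI2 were under every array's median, ZIC1 and ZIC2 fell by 0.39 and 0.40, and ATOH1 and BARHL1 were not called. The leukocyte markers PTPRC and CD14 were also under every array's median, and CD3E was not called.

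Among the members, more genes fell than rose in siKDM1A cells. Because the members were chosen with earlier results known, their shares are a description and no test of repair genes as a class. Of the 36 measured members 13 fell (36.1%), 1 rose and 22 did not pass the limma test at an adjusted p under 0.05, where over all 19775 genes 5.46% fell and 3.45% rose. The log2 fold change lay below 0 for 34 of the 36 members, with a median of -0.29, against a median of 0.01 over all genes. All 3 siKDM1A arrays lay below all 3 control arrays for 22 members (18.1% of all genes did so), they lay above for 2, and the arrays overlapped for 12. Of all 19775 genes, 2669 had the siKDM1A arrays above and 13532 had overlapping arrays. Of the 36 members 0 were under the median of every array. The shares over all genes take in dim genes too, so members and all genes were not matched for brightness. By pathway, 4 of 11 homologous recombination genes, 2 of 4 break sensing and resection genes, 3 of 9 Fanconi anemia genes, 1 of 4 checkpoint kinases and 3 of 8 excision and mismatch repair genes fell. The median log2 fold changes of these lists were -0.29, -0.44, -0.41, -0.15 and -0.15.

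**Figure D1:**
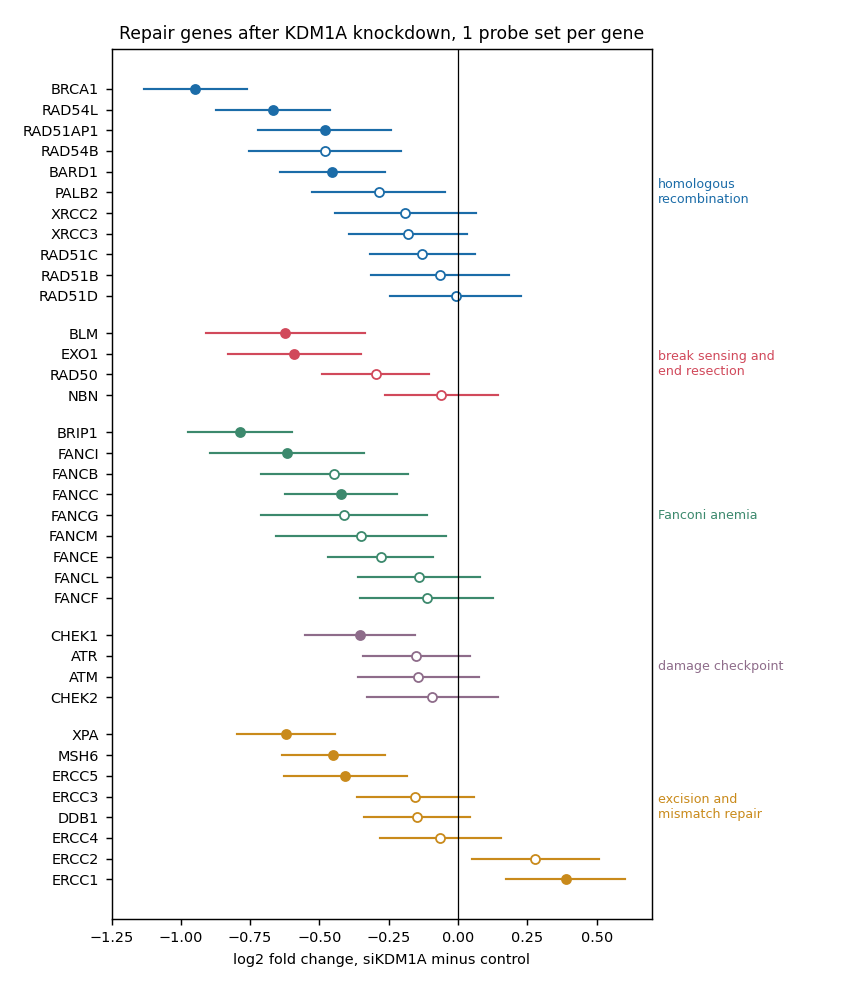
Log2 fold change of 36 repair genes (siKDM1A minus control, horizontal axis), each on its brightest probe set and sorted by pathway. Lines span the 95% confidence interval of the limma fit and filled points passed an adjusted p under 0.05. The points of 34 genes lie left of 0, BRCA1 farthest at -0.95, and ERCC1 and ERCC2 lie to the right.

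BRCA1, the breast cancer susceptibility gene whose product steers breaks into recombination, showed the largest decrease of the members. It stood at 8.95, 8.85 and 8.95 on the control arrays and at 7.93, 8.01 and 7.96 on the siKDM1A arrays. The groups lay about 1 log2 unit apart, far beyond the spread within either. The fitted difference was -0.95 ± 0.08 (SE), or 1.93-fold lower (limma adjusted p = 0.00035), and by size of decrease BRCA1 ranked 66 of 19775 genes. Its other probe set fell by 0.83.

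RAD54L, a motor protein that helps the broken end invade the sister chromatid, read 7.81, 7.62 and 7.82 in control and 7.09, 7.02 and 7.13 in siKDM1A cells. The fall was 1.59-fold (-0.67 ± 0.09, SE, limma adjusted p = 0.0034), and the groups did not overlap. BARD1, the obligate partner of BRCA1 in a ubiquitin ligase, read 8.09, 8.18 and 8.04 in control and 7.62, 7.65 and 7.68 in siKDM1A cells. It fell 1.37-fold (-0.45 ± 0.08, SE, limma adjusted p = 0.014), and a dimmer probe set of BARD1 fell by 0.48, while the dimmest differed by -0.19 with overlapping arrays. RAD51AP1 encodes a protein that stimulates strand pairing. Its values were 10.06, 9.99 and 9.89 in control and 9.56, 9.62 and 9.30 in siKDM1A cells, siKDM1A array c being the lowest. The decrease was 1.40-fold (-0.48 ± 0.11, SE, limma adjusted p = 0.030). Without control array b the call of BARD1 was lost at a difference of -0.41 (limma adjusted p = 0.069). The call of RAD51AP1 was lost when any 1 array other than siKDM1A b was left out, at differences from -0.52 to -0.38 (limma adjusted p up to 0.11).

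The other 7 measured recombination genes did not pass the test. RAD54B, a relative of RAD54L, read 8.10, 8.47 and 8.37 in control and 7.85, 7.98 and 7.67 in siKDM1A cells, with a difference of -0.48 ± 0.12 (SE, limma adjusted p = 0.052). Its groups did not overlap and its difference was as large as that of RAD51AP1, which passed the test with a smaller error. PALB2, which bridges BRCA1 to BRCA2, differed by -0.29 ± 0.11 (SE, limma adjusted p = 0.18), with overlapping arrays. The other 5, which assist recombination before strand invasion, showed smaller differences: -0.13 for RAD51C, whose arrays did not overlap, -0.07 for RAD51B, -0.01 for RAD51D, -0.19 for XRCC2 and -0.18 for XRCC3. For RAD51D the 95% confidence interval ran from -0.25 to 0.23, so a change within that range in either direction remained possible.

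Both genes called among those that sense and resect broken ends act in resection. EXO1, the exonuclease that chews back the strand ending at the break and also serves mismatch repair, read 8.10, 8.29 and 8.29 in control and 7.46, 7.77 and 7.67 in siKDM1A cells. It fell 1.51-fold (-0.59 ± 0.11, SE, limma adjusted p = 0.012). BLM is the helicase missing in Bloom syndrome, which works in resection and later takes joined molecules apart. It read 7.50, 7.49 and 7.66 in control and 6.69, 6.92 and 7.18 in siKDM1A cells, the most scattered siKDM1A values among the called members after those of FANCI, and still without overlap. The decrease was 1.54-fold (-0.62 ± 0.13, SE, limma adjusted p = 0.022). EXO1 lost its call without control b or control c (limma adjusted p up to 0.070), and BLM when any 1 array other than siKDM1A c was left out (limma adjusted p up to 0.10).

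RAD50 and NBN belong to the complex that first binds the ends. RAD50 read 8.68, 8.62 and 8.74 in control and 8.39, 8.45 and 8.31 in siKDM1A cells, a difference of -0.30 ± 0.09 (SE, limma adjusted p = 0.082). On each of its 3 probe sets the siKDM1A arrays lay below the control arrays, though none was called. NBN differed by -0.06 ± 0.09 (SE) with overlapping arrays, and its interval ran from -0.26 to 0.14. MRE11, the nuclease of the same complex and no member here, fell by 0.62 (limma adjusted p = 0.0035).

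Within the Fanconi anemia pathway the largest decrease was that of BRIP1, the helicase partner of BRCA1 also known as FANCJ. BRIP1 read 7.96, 7.97 and 7.88 in control and 7.08, 7.19 and 7.17 in siKDM1A cells. The groups were tight and far apart, with a fall of 1.73-fold (-0.79 ± 0.08, SE, limma adjusted p = 0.00094). Its other, dimmer probe set differed by -0.35 and was not called. FANCI forms with FANCD2 the pair of proteins that is ubiquitinated at a crosslink. Its values were 10.00, 9.94 and 10.01 in control and 9.53, 9.50 and 9.08 in siKDM1A cells, where array c was clearly the lowest. The decrease was 1.53-fold (-0.62 ± 0.12, SE, limma adjusted p = 0.020), a second probe set fell by 0.63, and the dimmest differed by -0.45 without passing the test.

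The Fanconi core complex, the ligase that ubiquitinates FANCI and FANCD2, gave 1 called gene among the 7 measured. FANCC read 7.34, 7.39 and 7.45 in control and 6.92, 6.91 and 7.10 in siKDM1A cells. It fell 1.34-fold (-0.42 ± 0.09, SE, limma adjusted p = 0.026), although its other 2 probe sets, both below the median of every array, differed by -0.05 and 0.11. Without overlap but short of the threshold were FANCB at -0.45 ± 0.12 (SE, limma adjusted p = 0.060), FANCG at -0.41 ± 0.13 (SE, limma adjusted p = 0.12) and FANCE at -0.28 ± 0.08 (SE, limma adjusted p = 0.096). The arrays overlapped for FANCM, the translocase that anchors the complex (-0.35 ± 0.14, SE), for FANCL, its ligase subunit (-0.14), and for the adaptor FANCF (-0.11). FANCI lost its call when any 1 control array was left out (limma adjusted p up to 0.091), and FANCC when any 1 array other than siKDM1A c was left out (limma adjusted p up to 0.13).

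**Figure D2:**
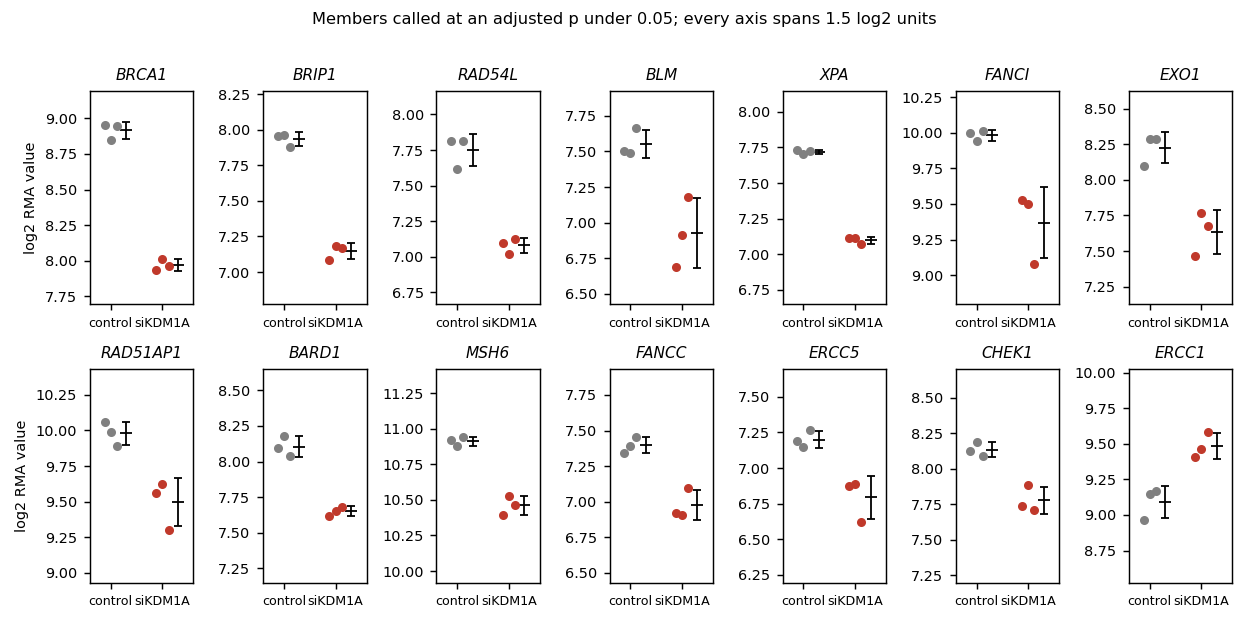
Log2 RMA values of the 14 called members on each array (points, grey for control and red for siKDM1A), with mean and SD beside them; each vertical axis has its own level and the same span. No panel shows overlap between groups, and the groups stand farthest apart for BRCA1 and BRIP1, while BLM and FANCI spread most among the siKDM1A arrays.

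The stretch before the transcription start was read from RefSeq promoters (GRCh38.p14) for the genes that fell, since genes active in S and G2 phase often carry E2F sites, CHR elements or CCAAT boxes there. Shown are the 3 members that fell and held at least 2 of these motifs in the 250 bases before their most upstream listed start, 5′ to 3′ on the gene's strand, with the matches in capitals on either strand. They are BLM at chr15:90717096-90717345 (plus strand), BRIP1 at chr17:61863529-61863778 (minus strand) and FANCC at chr9:95317710-95317959 (minus strand).
BLM: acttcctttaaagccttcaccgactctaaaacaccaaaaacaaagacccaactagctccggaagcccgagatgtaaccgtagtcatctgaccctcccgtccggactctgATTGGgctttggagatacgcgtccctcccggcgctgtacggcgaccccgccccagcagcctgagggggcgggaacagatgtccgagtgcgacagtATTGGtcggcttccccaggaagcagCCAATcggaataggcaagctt
BRIP1: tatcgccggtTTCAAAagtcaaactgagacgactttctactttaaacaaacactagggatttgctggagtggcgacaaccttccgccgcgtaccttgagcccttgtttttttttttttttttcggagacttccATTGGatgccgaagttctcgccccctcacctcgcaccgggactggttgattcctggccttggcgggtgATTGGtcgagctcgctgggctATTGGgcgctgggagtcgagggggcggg
FANCC: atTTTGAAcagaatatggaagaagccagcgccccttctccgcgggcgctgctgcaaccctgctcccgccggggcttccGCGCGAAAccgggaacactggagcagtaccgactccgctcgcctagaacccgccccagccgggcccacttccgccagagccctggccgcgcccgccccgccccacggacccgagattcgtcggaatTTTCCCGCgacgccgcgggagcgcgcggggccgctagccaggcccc
Capitals mark CCAAT, read as ATTGG on the other strand, 3 times before BLM and 3 times before BRIP1. BRIP1 also holds a CHR element, TTTGAA, as TTCAAA on the other strand, near the far end of the stretch. FANCC holds no CCAAT box but 2 E2F words, TTTCGCGC on the other strand and TTTCCCGC, and 1 CHR element.

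Promoters were found for 36 of the 39 members, 12 of them among the 13 that fell, and were searched on both strands from 250 bases before to 50 bases after each start for TTTCGCGC, TTTGGCGC, TTTCCCGC or TTTGCCGC (E2F), TTTGAA (CHR) and CCAAT, with 0 matches overlapping another. An E2F word stood at 3 of the 12 genes that fell (EXO1, FANCC and MSH6), at 1 of 20 not called, and at 3.99% of all genes in the table. Since some genes list several starts, the same counts per promoter were 3 of 21 (14.3%), 1 of 24 (4.17%) and 3.31%. CCAAT stood at 7 of the 12, at 7 of 20 not called and at 39.7% of all genes (47.6%, 33.3% and 34.6% of promoters). The CHR element stood at 2 of the 12, at 1 of 20 not called and at 18.2% of all genes (9.52%, 4.17% and 15.2% of promoters). ERCC1, the 1 member that rose, also held CCAAT and a CHR element, but no E2F word. Among members not called, XRCC3 held 5 CCAAT boxes in its window, and CHEK2 and ERCC2 held 3 each. These matches describe the sequence, and binding was not measured.

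Of the 4 checkpoint kinases only CHEK1 was called. CHEK1, the effector kinase that ATR activates at stalled forks, read 8.12, 8.19 and 8.09 in control and 7.74, 7.89 and 7.71 in siKDM1A cells. It fell 1.28-fold (-0.35 ± 0.09, SE, limma adjusted p = 0.049), on the edge of the threshold, and was called on 2 of its 4 probe sets, the other called one falling by 0.53. The sensor kinase ATR read 9.25, 9.27 and 9.24 in control and 9.06, 9.22 and 9.04 in siKDM1A cells. Its groups did not overlap, and the difference was -0.15 ± 0.09 (SE, limma adjusted p = 0.40). ATM, which responds to double-strand breaks, differed by -0.14 ± 0.10 (SE, limma adjusted p = 0.49), and its effector CHEK2 by -0.09 ± 0.11 (SE, limma adjusted p = 0.71), both with overlapping arrays. The CHEK1 call was lost when any 1 array other than siKDM1A b was left out (limma adjusted p up to 0.17), after cyclic loess and with the replicate letter as a block. The difference between CHEK1 and the other kinases was not tested.

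Excision and mismatch repair held decreases and the one increase among the members. XPA, which verifies the lesion in nucleotide excision repair, read 7.73, 7.70 and 7.72 in control and 7.11, 7.11 and 7.07 in siKDM1A cells. Replicates of XPA lay within 0.05 of each other, and the gene fell 1.54-fold (-0.62 ± 0.08, SE, limma adjusted p = 0.0024). MSH6, a subunit of the main mismatch sensor, read 10.92, 10.88 and 10.94 in control and 10.40, 10.53 and 10.46 in siKDM1A cells. On the brightest of its 4 probe sets it fell 1.37-fold (-0.45 ± 0.08, SE, limma adjusted p = 0.014). The others, with overlapping arrays, differed by -0.25, 0.14 and 0.26 and were not called, the last 2 being under every array's median, and the average of the 4 differed by -0.075 (limma adjusted p = 0.76). ERCC5 encodes XPG, the nuclease that cuts on the 3′ side of the lesion. Its values were 7.19, 7.15 and 7.27 in control and 6.87, 6.89 and 6.62 in siKDM1A cells, a fall of 1.33-fold (-0.41 ± 0.10, SE, limma adjusted p = 0.045). MSH6 lost its call without control a or control c (limma adjusted p up to 0.076), and ERCC5 on removal of any single array (limma adjusted p from 0.060 to 0.18).

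ERCC1 was the 1 member that rose. It encodes the partner of ERCC4 (XPF) in the nuclease that cuts on the 5′ side of the lesion, and read 8.97, 9.15 and 9.17 in control and 9.41, 9.46 and 9.58 in siKDM1A cells. The increase was 1.31-fold (0.39 ± 0.10, SE, limma adjusted p = 0.046). Its other probe sets differed by 0.21 and -0.01 and were not called, and the call was lost on removal of any single array (limma adjusted p from 0.070 to 0.15). ERCC4 itself differed by -0.06 ± 0.10 (SE, limma adjusted p = 0.79). Among the helicases that open the DNA, ERCC2 (XPD) read 6.38, 6.23 and 6.31 in control and 6.46, 6.54 and 6.76 in siKDM1A cells. On this probe set it was higher on every siKDM1A array, at a difference of 0.28 ± 0.10 (SE, limma adjusted p = 0.17). The other ERCC2 probe set, nearly as bright, differed by -0.02 with overlapping arrays (limma adjusted p = 0.95). ERCC3 (XPB) differed by -0.15 ± 0.09 (SE, limma adjusted p = 0.43), and DDB1, a subunit of the ultraviolet damage sensor, by -0.15 ± 0.08 (SE, limma adjusted p = 0.40), both without overlap. The other subunit of that sensor, DDB2, is no member and is given with the further repair genes.

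**Figure D3:**
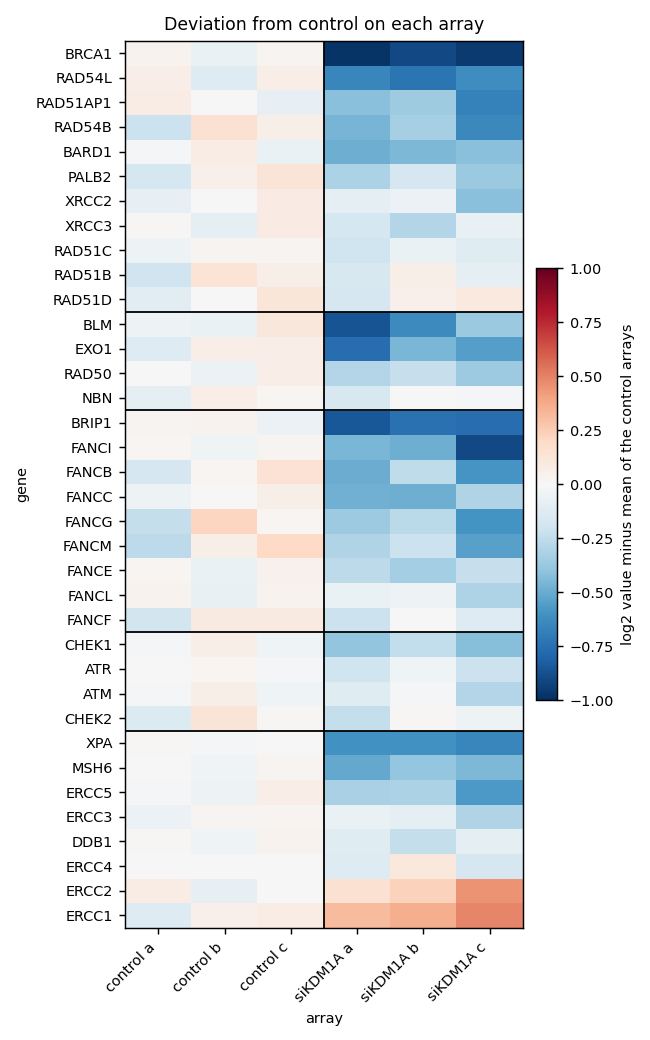
Deviation of each member (rows, by pathway) from its mean over the control arrays on each of the 6 arrays (columns), in log2 units from blue (lower) to red (higher). The siKDM1A columns are blue for most rows, darkest for BRCA1 and BRIP1, and red throughout for ERCC1 and ERCC2.

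The shift was present on each siKDM1A array. Averaged over the 36 members, the siKDM1A arrays a, b and c lay 0.33, 0.24 and 0.34 log2 units below the mean of the control arrays (values -0.33, -0.24 and -0.34), whereas the control arrays lay between -0.06 and 0.04 and the mean over all genes between -0.02 and 0.01. Array b gave the smallest shift for members as a whole. The Fanconi anemia genes showed mean shifts of -0.39, -0.32 and -0.48 and the recombination genes of -0.37, -0.30 and -0.39, while the excision and mismatch repair genes stood at -0.16, -0.12 and -0.16. Differences between pathways were not tested.

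**Figure D4:**
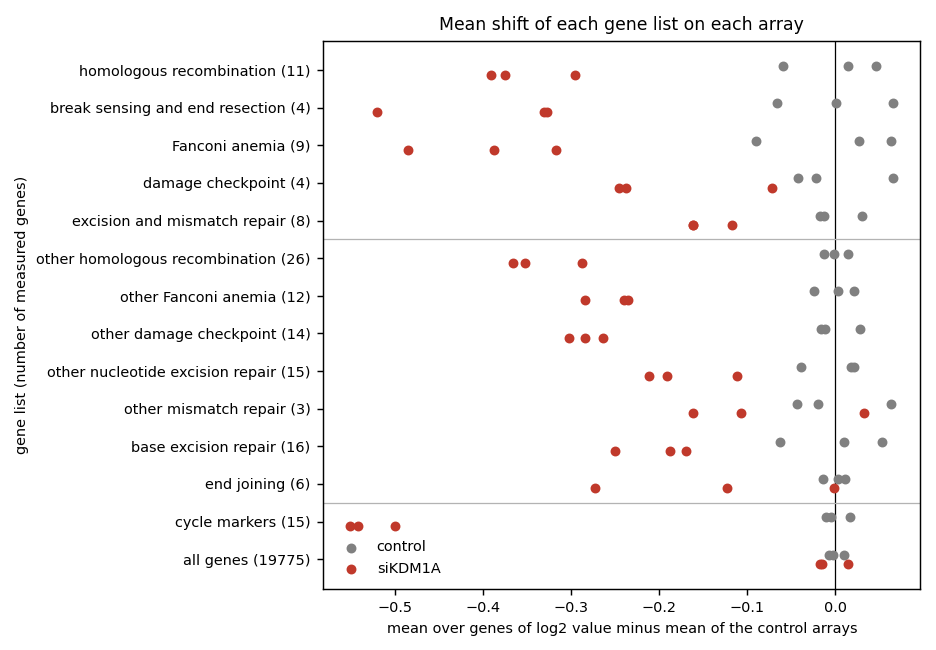
Mean over the genes of a list of the log2 value minus the mean of the control arrays (horizontal axis), 1 point per array, grey for control and red for siKDM1A; the upper block holds the members, the middle block further repair genes, the lower block cycle markers and all genes. Red points lie left of the grey ones for each member pathway, and farthest for the cycle markers.

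A gene's probe sets can differ in the transcripts they read, so all 79 probe sets of the members were examined. Of these 17 were called lower and 1 higher, where 3.73% of all 54613 probe sets were lower and 2.18% higher. Among the 43 that were not a gene's brightest, 4 were called lower, those of BRCA1, BARD1, FANCI and CHEK1, and 18 were under every array's median, of which 0 were called at an adjusted p under 0.05 by limma. Calls therefore came from the 61 brighter probe sets, and 16 members rested on a single probe set. Each called decrease except those of BRCA1, BARD1, FANCI and CHEK1 stood on 1 probe set.

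**Figure D5:**
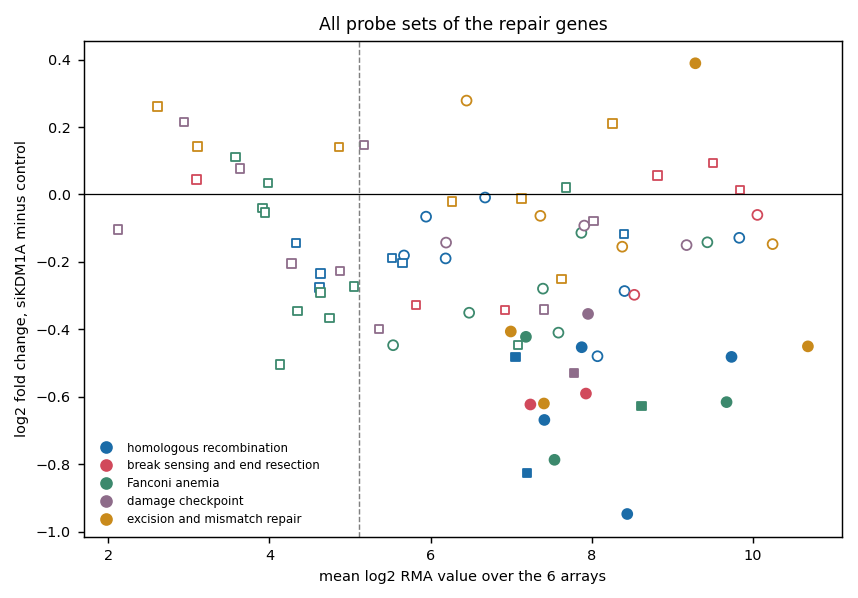
Log2 fold change (vertical axis) against the mean log2 RMA value over the 6 arrays (horizontal axis) for the 79 probe sets of the members, coloured by pathway. Circles are the brightest probe set of a gene, squares the others, and filled symbols passed an adjusted p under 0.05. The dashed line is the mean of the medians of the 6 arrays, and no filled symbol lies left of it.

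The number of calls depended on the arrays and the test used. Of the 13 decreases, BRCA1, BRIP1 and XPA were called under every one of 14 alternatives, and RAD54L under all but the one-way ANOVA that the study's methods name. With 1 array left out, 5 of the 13 were still called without control b, 5 without control c, 6 without control a, 8 without siKDM1A a, 10 without siKDM1A c and 10 without siKDM1A b. RAD54B was called in addition without control a, and FANCB without siKDM1A b. The ANOVA estimates the spread separately for each probe set. At an adjusted p under 0.05 over all probe sets it called 5 members lower, BRCA1, BARD1, BRIP1, MSH6 and XPA, and 0 higher. Of all genes 1.26% were called lower by it. The paper instead kept genes with a 3-fold change after its ANOVA, so these calls are not those of its own procedure.

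Repair genes outside the members also fell more often than they rose. Of 92 measured genes from the same and neighbouring pathways 23 fell, 1 rose and 68 were not called, with a median of -0.22. Over all genes 5.46% fell and 3.45% rose, and these lists too were chosen with earlier results known. By list, 7 of 14 other checkpoint genes fell, 5 of 26 other recombination genes, 3 of 12 other Fanconi anemia genes, 3 of 15 other nucleotide excision repair genes and 5 of 16 base excision repair genes, while none of 3 other mismatch repair and none of 6 end joining genes did. The largest decreases were those of DDB2, the lesion-binding subunit of the ultraviolet damage sensor (-1.03), GEN1, a nuclease that cuts joined molecules (-0.96), RMI2, a subunit of the BLM complex (-0.94), and UNG, the glycosylase that removes uracil from DNA (-0.77). The 1 increase was that of LIG4, the ligase of end joining, by 0.54 (limma adjusted p = 0.048). Over all genes 61.3% of the calls were decreases, and 50.7% after cyclic loess, under which 11 members were still lower and 1 higher.

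Markers of cycling cells were lower on the same arrays. Of 15 such genes 9 fell, none rose and 6 were not called, with a median of -0.56, where 5.46% of all genes fell and 3.45% rose. The proliferation marker MKI67 fell by 0.98, the replication helicase subunit MCM5 by 0.93 and the topoisomerase TOP2A by 0.71, whereas CCNE1 and E2F1 differed by 0.05 and -0.11 with overlapping arrays. Averaged over the 15 genes the siKDM1A arrays lay at -0.54, -0.50 and -0.55 and the control arrays between -0.01 and 0.02. The part of a lower share of cycling cells in the repair gene decreases was not tested.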

How the data were processed

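The 6 arrays (3 siKDM1A, 3 control) were grouped by the treatment label. RMA in the Partek Genomics Suite was run by the authors, and the deposited log2 values of 54675 probe sets were used unchanged. Because RMA gives all arrays 1 distribution, it would take out most of any shift shared by the majority of genes. Median log2 values lay between 5.09 and 5.16. After 62 Affymetrix controls were left out, 54613 probe sets were tested with limma 3.58.1 under R 4.3.3 (moderated test from lmFit and eBayes without a trend, two-sided, Benjamini-Hochberg over all probe sets, threshold 0.05). Gene names came from the platform's annotation (41091 probe sets with 1 gene, 1801 with several, 11721 with none), and 0 symbols needed updating. A gene was called on its brightest probe set over the 6 arrays. Every measured member is named, with values on each array where called; of the further repair genes, the largest called changes. Members and gene lists were chosen with earlier results of these data known. The fit was also run on simulated data with independent noise, and the outcome is not given here. Alternatives were median centring, cyclic loess, an intensity trend with a robust prior, a filter on dim probe sets, the replicate letter as a block, leaving out each array, one-way ANOVA and other probe set rules. The number of arrays limits the precision. Promoter sequences are from RefSeq (GRCh38.p14), with windows of 300 bases.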

Additional observations from a re-analysis of the deposited data

How the results depend on the processing

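Among members, the count of 13 decreases became 14 after median centring, 11 after cyclic loess, 15 with an intensity trend and robust prior, 17 without dim probe sets, 14 when a gene's probe sets were averaged and 12 without _x_at and _s_at probe sets. One-way ANOVA gave 5, and leaving out 1 array gave 5 to 11. The 1 increase, ERCC1, was called 0 times with any array left out (0 to 0), after median centring, by one-way ANOVA, with averaged probe sets and without _x_at and _s_at probe sets. Over all probe sets the 2037 decreases became 2443 after median centring and 1675 after cyclic loess. With the trend and robust prior they became 2551, and without dim probe sets 2524. By ANOVA they became 401, and with 1 array left out 694 to 1563. The 1193 increases became, in the same order, 1048, 1379, 1459, 1297, 275 and 609 to 1103. FANCC and MSH6 lost their calls with averaged probe sets, and FANCC also without _x_at and _s_at probe sets. No called member changed direction. RAD54B, RAD50, FANCB and FANCE, not called here, were called under 5, 2, 3 and 2 of the 14 alternatives. Fewer arrays leave less information in the leave-one-out fits, and other causes were not tested. No member probe set under the median signal of every array was called.

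The replicate letters were not taken to pair the samples. Deviations from the group means correlated at 0.11, 0.23 and -0.13 for letters a, b and c, and not every array correlated best with its own letter. With the letters as a replicate block 11 members were lower and 0 higher (CHEK1, ERCC5 and ERCC1 lost their calls), and 1639 probe sets were lower and 1080 higher.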
